A study of Mus musculus with 9 samples.

Results

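The miR-125, miR-99/100 and miR-10 guide strands were followed in the mouse hippocampus after aspiration of fine particulate matter (PM2.5). They are mmu-miR-125a-5p, mmu-miR-125b-5p, mmu-miR-99a-5p, mmu-miR-99b-5p, mmu-miR-100-5p, mmu-miR-10a-5p and mmu-miR-10b-5p (written without the mouse prefix mmu from here on), 7 of the 1247 mouse miRNAs on the array, and were chosen by name as 3 seed families that are related in sequence or in genomic arrangement. Male, young adult C57BL/6 mice received saline (control), 1 mg/kg PM2.5 or 5 mg/kg PM2.5 by oropharyngeal aspiration, in which liquid placed in the throat is breathed into the lung. The aspirations were repeated on alternate days over 4 weeks. The mice carried no transgene or lentiviral construct in these samples. The labels of the control arrays name saline alone, and the particles came from outdoor air of 1 city in winter. Total hippocampal RNA was labelled with Cy3 and hybridized to 9 Agilent arrays, 3 per group and 1 mouse per array.

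miRNAs guide the silencing complex to messenger RNAs chiefly through the seed, bases 2 to 8 of the mature strand, so miRNAs with the same seed are counted as a family. In vertebrates miR-99/100, let-7 and miR-125 genes lie side by side in duplicated clusters, and members of a cluster can be cut from a shared primary transcript. miR-125b and let-7 are abundant in the differentiated nervous system. The miR-10 genes sit inside Hox clusters, whose genes pattern the hindbrain, spinal cord and trunk, and the forebrain, to which the hippocampus belongs, lies in front of the Hox domain.

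The mature sequences are shown to let the families be compared. All 7 names matched RefSeq (GRCm38.p6), from which the sequences were taken, and they are written 5′ to 3′ with the seed in capitals. The seed CCCUGAG was shared by the miR-125 strands:
miR-125a-5p: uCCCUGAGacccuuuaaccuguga
miR-125b-5p: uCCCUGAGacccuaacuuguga
The seed ACCCGUA was shared by the miR-99/100 strands:
miR-99a-5p: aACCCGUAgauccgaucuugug
miR-99b-5p: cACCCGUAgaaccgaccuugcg
miR-100-5p: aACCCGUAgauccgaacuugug
The seed ACCCUGU was shared by the miR-10 strands:
miR-10a-5p: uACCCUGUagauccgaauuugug
miR-10b-5p: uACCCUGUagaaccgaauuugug

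Counted from 1 at the 5′ end, miR-99a-5p and miR-100-5p differed at 1 of 22 bases (U16A), and miR-10a-5p and miR-10b-5p at 1 of 23 bases (U12A). miR-99b-5p was further from miR-99a-5p, with 4 differences read from miR-99a-5p to miR-99b-5p (A1C, U11A, U16C and U21C). miR-125a-5p was 24 bases long and miR-125b-5p 22. The seed CCCUGAG was also carried by miR-351-5p, miR-6367 and miR-6394 on the array, and each of these was detected on 0 of 9 arrays. No other RefSeq mature miRNA carried ACCCGUA or ACCCUGU. Of the 1247 miRNAs on the array, 1017 were matched to RefSeq by name, and the seeds of the rest were not examined.

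Each of the 7 was read by 2 DNA probes of 20 spots each. All 14 probes were complementary to the 3′ part of their miRNA up to its last base, so the seed was covered at most in part. The longer probes of the closest relatives are shown 5′ to 3′ with the base that differs in capitals:
miR-99a-5p probe: cacaagAtcggatctacgg
miR-100-5p probe: cacaagTtcggatctacgg
miR-10a-5p probe: cacaaattcggAtctacaggg
miR-10b-5p probe: cacaaattcggTtctacaggg
The 19-base miR-100-5p probe had 1 mismatch to miR-99a-5p and 2 to miR-10a-5p. The 21-base miR-10a-5p probe had 1 mismatch to miR-10b-5p, 3 to miR-100-5p and 4 to miR-99a-5p. Binding of a relative to these probes was not tested, and the values of miR-99a-5p and miR-100-5p are uncertain to that extent. Counted from the 3′ end without gaps, the probes of miR-125a-5p and miR-125b-5p had at least 5 mismatches to the other strand. These strands differ in length, so an alignment with a gap could give fewer mismatches, and it was not made. Binding of either strand to the probes of the other was not tested.

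In RefSeq, Mir99b lay at chr17:17830188-17830257, Mirlet7e at chr17:17830352-17830444 and Mir125a at chr17:17830812-17830879, all within the span of Spaca6, and the whole cluster ended 691 bases after its start. Mir99a (chr16:77598936-77599000) was followed after 656 bases by Mirlet7c-1 and after a further 46522 bases by Mir125b-2 (chr16:77646273-77646343). Mir100 (chr9:41531425-41531504) was followed after 5211 bases by Mirlet7a-2 and after a further 45114 bases by Mir125b-1 (chr9:41581926-41582002), all within the span of the noncoding gene Mir100hg. miR-125b-5p therefore has 2 gene copies with the same mature sequence, which the array reads as 1 value. Mir10a (chr11:96317165-96317274) lay within the span of Hoxb3, and Mir10b (chr2:74726070-74726137) within the spans of Hoxd3 and Hoxd4. Only gene spans were at hand, so exons and introns of these host genes were not told apart.

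**Figure D1:**
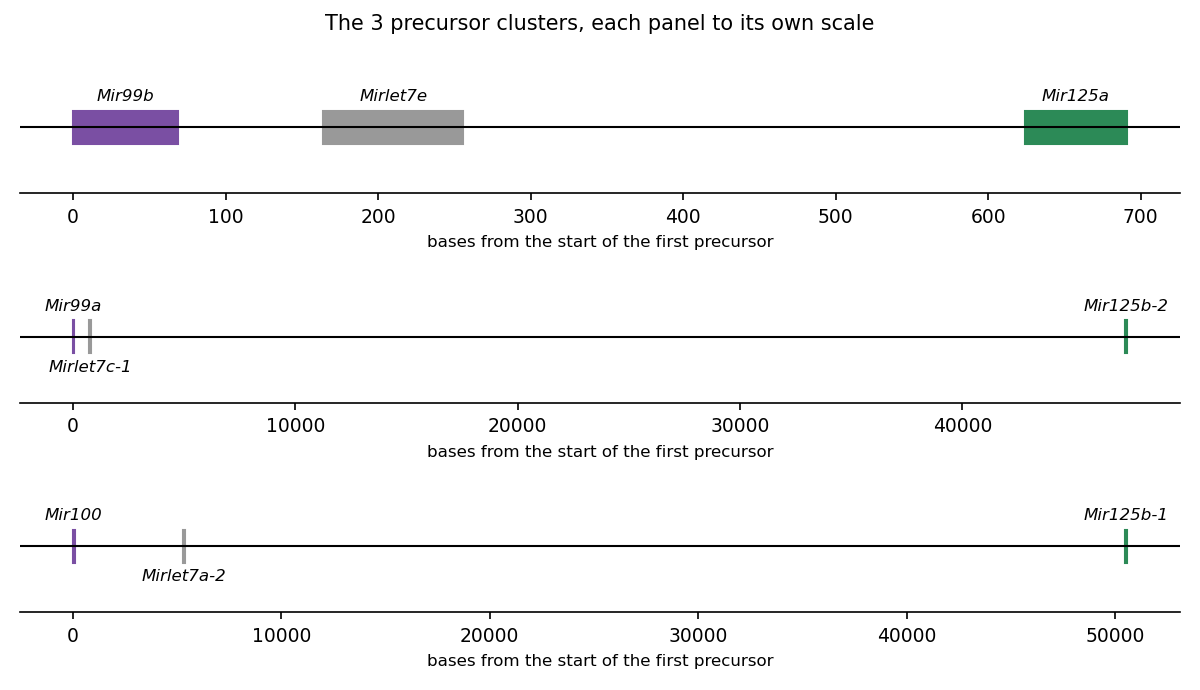
Map of the 3 precursor clusters, with the distance in bases from the start of the first precursor on the horizontal axis and a separate scale in each panel. The boxes are precursors (purple miR-99/100, grey let-7, green miR-125), and the miR-99b cluster spans 691 bases where the other clusters reach over 47407 and 50577 bases.

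Between 410 and 436 miRNAs were detected per array, and no spot was saturated. The tissue markers fitted brain: miR-124-3p, miR-9-5p, miR-128-3p, miR-138-5p and miR-137-3p were detected on 9 of 9 arrays, as were miR-219-5p and miR-338-3p of oligodendrocytes. The liver marker miR-122-5p and the muscle marker miR-206-3p were detected on 0 arrays. Markers of the choroid plexus (miR-204-5p and miR-211-5p on 9 arrays, miR-448-3p on 7), of red cells (miR-451a on 9, miR-144-3p on 8 and miR-144-5p on 0) and of muscle (miR-1a-3p and miR-133a-3p on 9) were also seen. On slide 1 the upper row held the 3 control arrays and 1 mg/kg replicate 1, and the lower row held 1 mg/kg replicates 2 and 3 and 5 mg/kg replicates 1 and 2. 5 mg/kg replicate 3 was in the upper row of slide 2, so no row of a slide held both control and 5 mg/kg arrays.

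The families fell apart in detection. miR-125a-5p, miR-125b-5p, miR-99a-5p, miR-99b-5p and miR-100-5p were detected on all 9 arrays, with 100% of their spots well above background on every array. The summed signal of miR-125b-5p, the strand with a gene copy in both long clusters, ran from 18452 to 26789 scanner units. That of miR-125a-5p ran from 1775 to 2307 and that of miR-99a-5p from 2322 to 3323. That of miR-99b-5p ran from 355 to 499 and that of miR-100-5p from 1413 to 2029. These ranges show that each was far above the lowest detected signal of its array, which lay between 5.99 and 8.10 units. Because probes differ in affinity, brightness does not rank these miRNAs by abundance.

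miR-10a-5p, the strand from the Hoxb cluster, was detected on 0 of 9 arrays. Its summed signal was 8.16, 7.43 and 5.66 units in control replicates 1 to 3, then 7.85, 6.80 and 10.03 units at 1 mg/kg and 6.46, 7.86 and 9.28 units at 5 mg/kg. The groups overlapped, with the highest value in 1 mg/kg replicate 3 and the lowest in control replicate 3. miR-10b-5p, the strand from the Hoxd cluster, was also detected on 0 of 9 arrays. Its summed signal was 3.12, 3.87 and 1.84 units in the control arrays, 3.55, 4.45 and 4.64 units at 1 mg/kg and 3.36, 6.36 and 5.33 units at 5 mg/kg. It lay under the lowest detected signal of its array on all 9 arrays, whereas miR-10a-5p lay under it on 3 arrays and above it on the other 6. Neither strand met the detection filter, so no change was tested for either.

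At most 5% of the 20 spots of any miR-10a-5p or miR-10b-5p probe were well above background on any array. The 21-base probe of miR-10a-5p read 4.45 to 6.86 units and its 20-base probe 1.21 to 3.16 units, while the negative control spots of an array had means between 2.18 and 2.94 units with SDs between 2.16 and 2.34. The other Hox-linked miRNAs on the array were also undetected, and their probes all read below the 21-base miR-10a-5p probe. These miRNAs were miR-10a-3p, miR-10b-3p, and the strands of miR-196a, miR-196b and miR-615, whose genes also lie in Hox clusters. All 11 Hox-linked miRNAs were detected on 0 of 9 arrays, and the 30 probes of the 9 that are not miR-10 guide strands read between -4.37 and 2.61 units. A signal not well above background leaves only a bound, and it does not show that the RNA is absent.

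**Figure D2:**
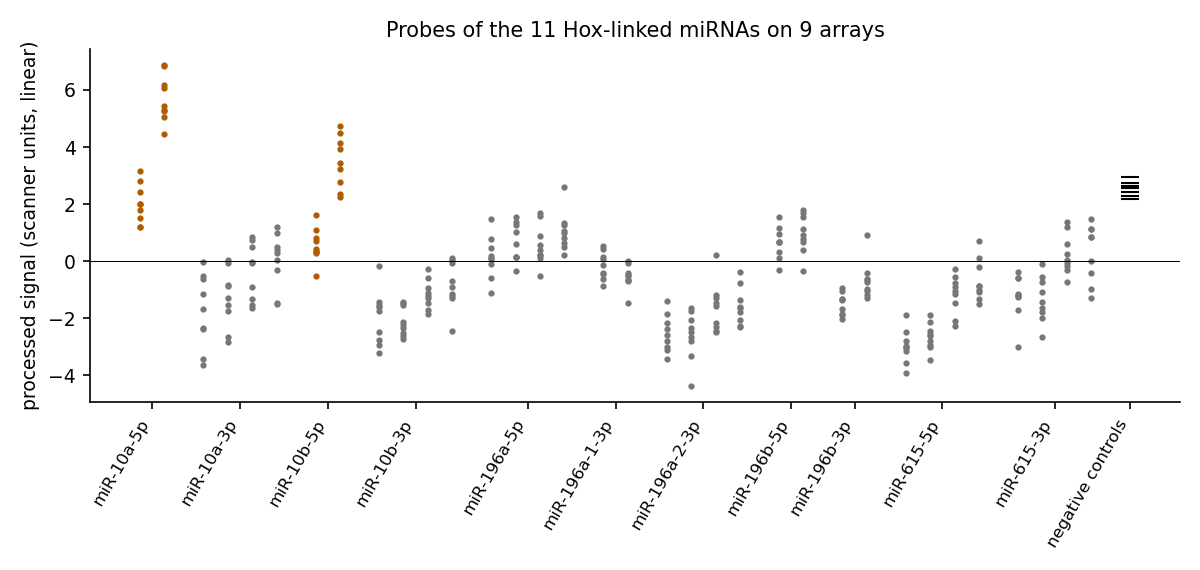
Processed signal in scanner units on a linear axis for every probe of the 11 Hox-linked miRNAs, with 1 point per array (9 arrays), orange for miR-10a-5p and miR-10b-5p, and black dashes for the mean of the negative control spots of each array. No point exceeds 6.86 units, and none of the 11 miRNAs was detected.

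The comparison with saline asks which hippocampal miRNAs differ after particle aspiration. Levels below are log2 normalized signals, in which 0 is the 75th percentile of the detected miRNAs of the same array. Changes are differences of group means from limma over 424 tested miRNAs, and the 5 detected strands were all among these. A miRNA was called at an unadjusted p under 0.05, the screening threshold of the study, and the Benjamini-Hochberg adjusted count is given beside it. None of the 5 was called at either dose or between the doses, and none was called by the least significant difference comparison of the study's methods on the same values. In whole-tissue RNA, fewer cells of a type and less RNA per cell cannot be told apart.

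miR-125a-5p, the strand of the compact cluster, read 1.85, 1.83 and 1.85 in the control arrays. It read 1.81, 1.76 and 1.91 at 1 mg/kg and 1.98, 1.88 and 1.86 at 5 mg/kg. All 5 mg/kg arrays lay above all control arrays, whereas the 1 mg/kg arrays lay on both sides of them. The control arrays were close to each other (SD 0.012, n = 3) compared with 0.077 at 1 mg/kg and 0.064 at 5 mg/kg. The change at 5 mg/kg was 0.063 ± 0.067 (SE), with an adjusted p of 0.784 in limma, and that at 1 mg/kg was -0.012 ± 0.067 with an adjusted p of 0.948.

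miR-125b-5p read 5.38, 5.29 and 5.26 in the control arrays. It read 5.19, 5.35 and 5.45 at 1 mg/kg and 5.32, 5.42 and 5.45 at 5 mg/kg. The groups overlapped at both doses, with the lowest value of the series in 1 mg/kg replicate 1. The changes were 0.020 ± 0.085 at 1 mg/kg and 0.087 ± 0.085 at 5 mg/kg, with adjusted p values of 0.948 and 0.760 in limma.

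miR-99a-5p, the partner of let-7c, read 2.43, 2.38 and 2.27 in the control arrays. It read 2.22, 2.28 and 2.40 at 1 mg/kg and 2.07, 2.40 and 2.44 at 5 mg/kg. The 5 mg/kg group was the widest, since replicate 1 was the lowest of the 9 arrays and replicate 3 the highest (SD 0.20). The changes were -0.059 ± 0.11 at 1 mg/kg and -0.056 ± 0.11 at 5 mg/kg, and without 5 mg/kg replicate 1 the latter was 0.060.

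miR-99b-5p, the partner of miR-125a and let-7e, read -0.45, -0.51 and -0.47 in the control arrays. It read -0.51, -0.51 and -0.30 at 1 mg/kg and -0.41, -0.47 and -0.44 at 5 mg/kg. Replicate 3 at 1 mg/kg stood above the other 8 arrays, which lay within a narrow band. The changes were 0.039 ± 0.075 at 1 mg/kg and 0.038 ± 0.075 at 5 mg/kg. Without 1 mg/kg replicate 3, the first of these was -0.033.

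miR-100-5p, which differs from miR-99a-5p by a single base, read 1.62, 1.57 and 1.52 in the control arrays. It read 1.49, 1.70 and 1.66 at 1 mg/kg and 1.39, 1.66 and 1.72 at 5 mg/kg. Both exposed groups had 1 array below and 2 above all control arrays. The changes were 0.051 ± 0.10 at 1 mg/kg and 0.022 ± 0.10 at 5 mg/kg, and the latter was -0.047 without 5 mg/kg replicate 3.

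**Figure D3:**
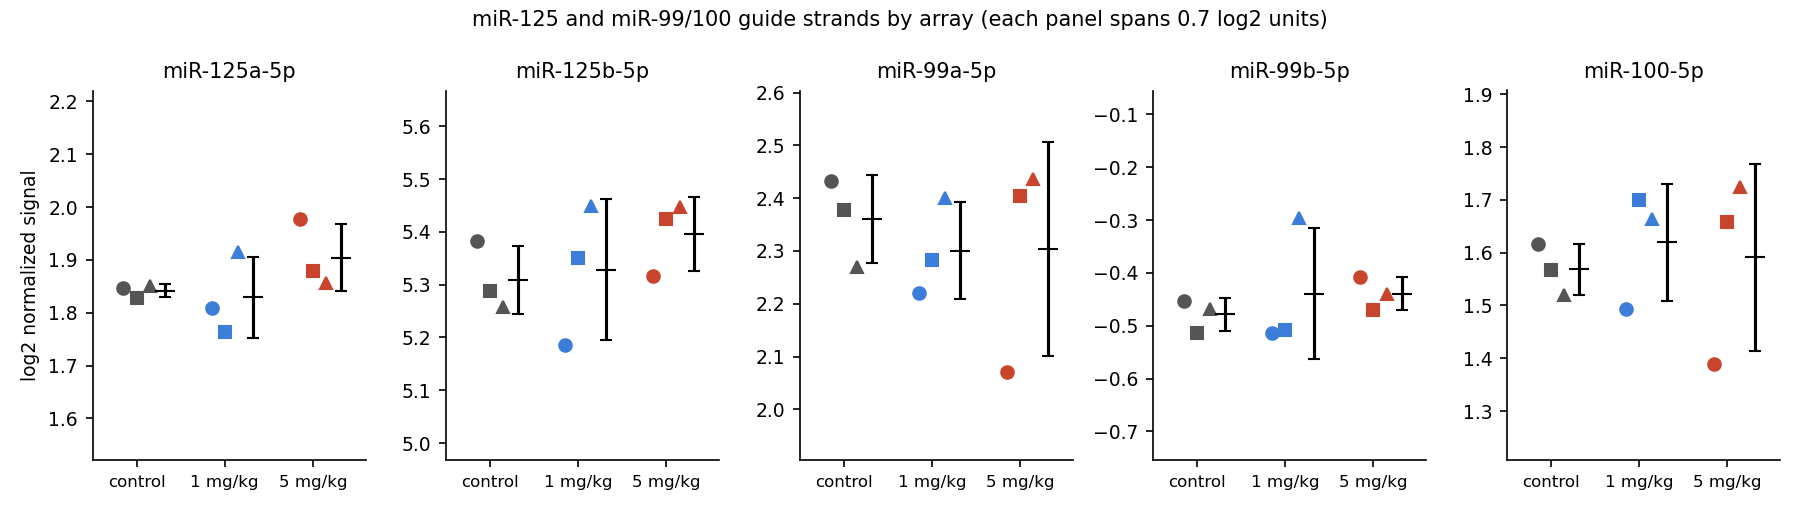
Log2 normalized signal of the 5 detected strands by group, with 1 symbol per array (circle, square and triangle for replicates 1, 2 and 3) and the group mean with its SD (n = 3) in black to the right. Only for miR-125a-5p at 5 mg/kg do the exposed arrays lie wholly on the same side of the control arrays, and all axes cover the same length of scale.

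At 1 mg/kg, 0 of the 5 strands were called against 7.78% of all tested miRNAs, and 0 passed the adjusted threshold against 0.236%. None was without overlap between groups, against 12.3% of all tested miRNAs. Their median change was 0.020 where that of all 424 tested miRNAs was -0.032. The 95% intervals of the 5 changes reached from -0.31 to 0.28, that is from 0.807-fold to 1.22-fold, so changes beyond these bounds lay outside every interval.

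At 5 mg/kg, 0 of the 5 were called against 9.43% of all tested miRNAs, and 0 at the adjusted threshold, as for all tested miRNAs (0%). miR-125a-5p was the 1 strand without overlap, a pattern that 16.0% of all tested miRNAs had. The median change of the 5 was 0.038 and that of all tested miRNAs -0.0035. The intervals reached from -0.31 to 0.28, that is from 0.809-fold to 1.21-fold. The comparisons at the 2 doses share the control arrays, so they are not independent.

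Between the doses, 0 of the 5 were called against 3.77% of all tested miRNAs, 0 at the adjusted threshold against 0.236%, and 0 were without overlap against 7.31%. The changes from 1 to 5 mg/kg were 0.075 for miR-125a-5p, 0.067 for miR-125b-5p, 0.0032 for miR-99a-5p, -0.00078 for miR-99b-5p and -0.028 for miR-100-5p, with intervals that reached from -0.26 to 0.26. Their median was 0.0032 where that of all tested miRNAs was 0.041.

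Row of the slide and group were partly confounded. With the row as a block, the changes of the 5 strands ran from -0.046 to 0.055 at 1 mg/kg and from -0.030 to 0.042 at 5 mg/kg, and 0 were called. Row here means upper or lower on either slide, so the block put 5 mg/kg replicate 3 of slide 2 with the control arrays of slide 1. Slides were not told apart in this fit, nor where row means were taken out below. Within the lower row of slide 1, where 2 arrays of each dose lay, the differences of 5 mg/kg from 1 mg/kg were 0.089 for miR-125a-5p, -0.029 for miR-125b-5p, -0.10 for miR-99a-5p, -0.038 for miR-99b-5p and -0.16 for miR-100-5p. In the upper row of slide 1, the 1 array at 1 mg/kg was below the mean of the 3 control arrays for all 5 strands, by values from -0.14 for miR-99a-5p to -0.033 for miR-125a-5p, with no replicate to test them.

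The 2 probes of each strand were also read singly. For miR-125b-5p at 5 mg/kg the 16-base probe gave 0.20 and the 17-base probe 0.067. For miR-99a-5p at the same dose, the 18-base probe gave 0.041 and the 19-base probe -0.094, so the probes differed in sign. For miR-100-5p they gave 0.087 and 0.00057, and for miR-125a-5p 0.12 and 0.036.

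The other products of these precursors were described from a list of 14 that held the let-7 partners and the opposite arms. Of these, 8 were detected on all 9 arrays and tested: let-7a-5p, let-7c-5p, let-7e-5p, let-7c-1-3p, let-7e-3p, miR-125a-3p, miR-99a-3p and miR-99b-3p. The other 6, let-7a-2-3p, miR-125b-1-3p, miR-125b-2-3p, miR-100-3p, miR-10a-3p and miR-10b-3p, were detected on 0 arrays. Thus in the compact miR-99b cluster every arm was detected, whereas Mir100 was seen by the guide strand alone. Of the Mir125b copies only the shared guide strand was detected, which does not tell the copies apart.

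Of the 8 tested partners and arms, 0 were called in any of the 3 comparisons. Of all tested miRNAs, 7.78% were called at 1 mg/kg, 9.43% at 5 mg/kg and 3.77% between the doses. Their median change was -0.13 at 1 mg/kg and -0.082 at 5 mg/kg, and 0 of the 8 changes at 5 mg/kg were above 0 where 207 of all 424 were. let-7c-5p read 5.92, 5.68 and 5.65 in the control arrays. It read 5.49, 5.48 and 5.70 at 1 mg/kg and 5.26, 5.55 and 5.84 at 5 mg/kg. The groups overlapped, and the changes were -0.19 ± 0.15 and -0.20 ± 0.15, with adjusted p values of 0.802 and 0.698 in limma.

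let-7e-5p read 3.68, 3.60 and 3.58 in the control arrays. It read 3.51, 3.43 and 3.56 at 1 mg/kg and 3.59, 3.52 and 3.54 at 5 mg/kg. All 1 mg/kg arrays lay below all control arrays, with a change of -0.12 ± 0.065 and an adjusted p of 0.597 in limma, and at 5 mg/kg the groups overlapped (-0.069 ± 0.065). let-7a-5p, which several genes make, read 5.76, 5.61 and 5.60 in the control arrays. It read 5.46, 5.47 and 5.60 at 1 mg/kg and 5.40, 5.52 and 5.67 at 5 mg/kg. Its groups overlapped, and the changes were -0.14 ± 0.090 and -0.12 ± 0.090.

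miR-99a-3p, the opposite arm of miR-99a-5p, read -5.40, -5.32 and -5.41 in the control arrays and -5.68, -5.46 and -5.60 at 5 mg/kg. Its 5 mg/kg arrays lay below all control arrays, with a change of -0.21 ± 0.091 and an adjusted p of 0.511 in limma. The summed signal of this arm lay between 10.8 and 13.9 units over these arrays. let-7c-1-3p was the 1 arm without overlap between the doses (-0.13 ± 0.078 from 1 to 5 mg/kg). Thus 1 of the 8 partners and arms was without overlap in each comparison. Of all tested miRNAs, 12.3% were without overlap at 1 mg/kg, 16.0% at 5 mg/kg and 7.31% between the doses.

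**Figure D4:**
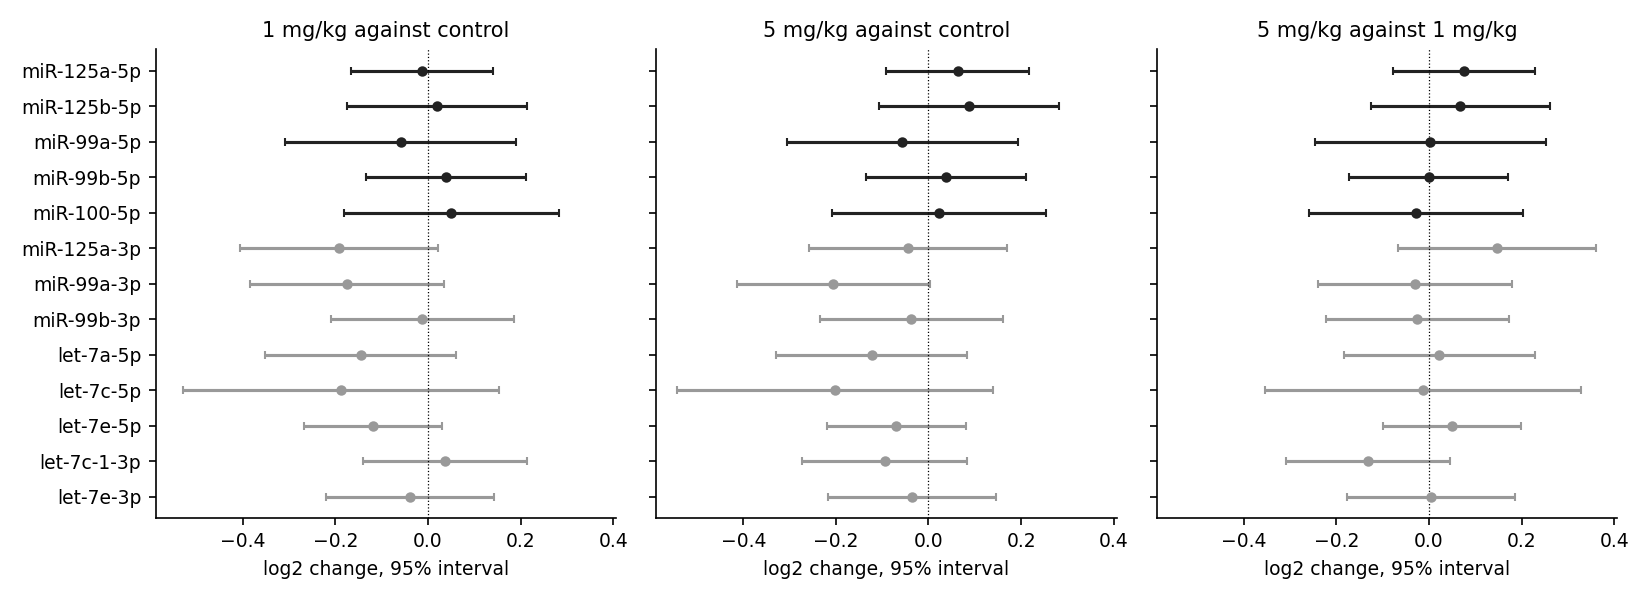
Log2 change with its 95% interval from limma for the 5 strands (black) and the 8 tested precursor partners and arms (grey) in the 3 comparisons, with 3 arrays per group. Every interval holds 0, and those of the 5 strands lie between -0.31 and 0.28.

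Strands with genes in the same cluster were then compared across arrays. Gene copies of the let-7 strands outside these clusters, and binding of let-7 relatives to their probes, were not examined. A let-7 value, that of let-7c-5p included, is therefore not a reading of its cluster alone. Pearson's r and Spearman's rho were taken over the 9 arrays for 8 pairs, with exact permutation tests over 362880 pairings and Benjamini-Hochberg adjustment over the 8. miR-99a-5p and let-7c-5p rose and fell together, with r = 0.87 (exact permutation p = 0.00199, adjusted p = 0.0159) and rho = 0.82 (exact permutation p = 0.0108, adjusted p = 0.0431). 5 mg/kg replicate 1 was lowest for both strands. Without the 2 arrays farthest from the median, 1 mg/kg replicate 1 and 5 mg/kg replicate 1, r was 0.66 over 7 arrays.

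The call held under most of the other scalings. The adjusted p by the exact permutation test was 0.0403 when the percentile was taken over undetected miRNAs too. By the same test it was 0.0107 when arrays were scaled on the detected median and 0.0146 with normexp background correction. It was 0.00514 on the total signal of the files and 0.00499 unscaled, but these settings did not set the pair apart. Unscaled, every pair passed (r from 0.68 to 0.95). On total signal, all pairs passed except miR-125b-5p with let-7c-5p (r from 0.61 to 0.93 over all pairs). It was lost with quantile normalization (r = 0.75, adjusted p = 0.172 by the same exact test). The pair also missed the adjusted threshold by the exact permutation test without 5 mg/kg replicate 1 (r = 0.74, adjusted p = 0.0887) and without 5 mg/kg replicate 3 (r = 0.85, adjusted p = 0.0633). In the deposited log2 table r was 0.58 (exact permutation, adjusted p = 0.384). With row means taken out r was 0.91. It was 0.92 within the 5 upper-row arrays, which included 5 mg/kg replicate 3 of slide 2, and 0.93 within the 4 lower-row arrays.

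miR-99b-5p and miR-125a-5p, which lie in the compact cluster, gave r = 0.71 (exact permutation p = 0.0427, adjusted p = 0.114) and rho = 0.82 (exact permutation p = 0.0108, adjusted p = 0.0431). Without the 2 farthest arrays, 1 mg/kg replicate 3 and 5 mg/kg replicate 1, r stayed at 0.71. With row means taken out it was 0.65. Their partner let-7e-5p gave r = 0.24 with miR-99b-5p and 0.43 with miR-125a-5p, and neither passed the test (exact permutation, adjusted p = 0.485 and 0.311). These were 0.53 and 0.72 with row means taken out (exact permutation within rows, adjusted p = 0.216 and 0.035).

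miR-125b-5p was set against partners of both its copies. It gave r = 0.71 with miR-100-5p (exact permutation p = 0.0306, adjusted p = 0.114), 0.62 with miR-99a-5p (adjusted p = 0.147 by the same exact test) and 0.41 with let-7c-5p (adjusted p = 0.311 by the same exact test). Without the 2 farthest arrays these were 0.82, 0.71 and 0.33. They were 0.75, 0.83 and 0.88 with row means taken out (exact permutation within rows, adjusted p = 0.0139, 0.00833 and 0.00833). miR-100-5p and let-7a-5p gave r = 0.49 (exact permutation p = 0.176, adjusted p = 0.282), and -0.18 without the 2 farthest arrays, so that relation rested on 1 mg/kg replicate 1 and 5 mg/kg replicate 1. All 8 coefficients were above 0, from 0.24 to 0.87, and with row means taken out they ran from 0.53 to 0.91.

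**Figure D5:**
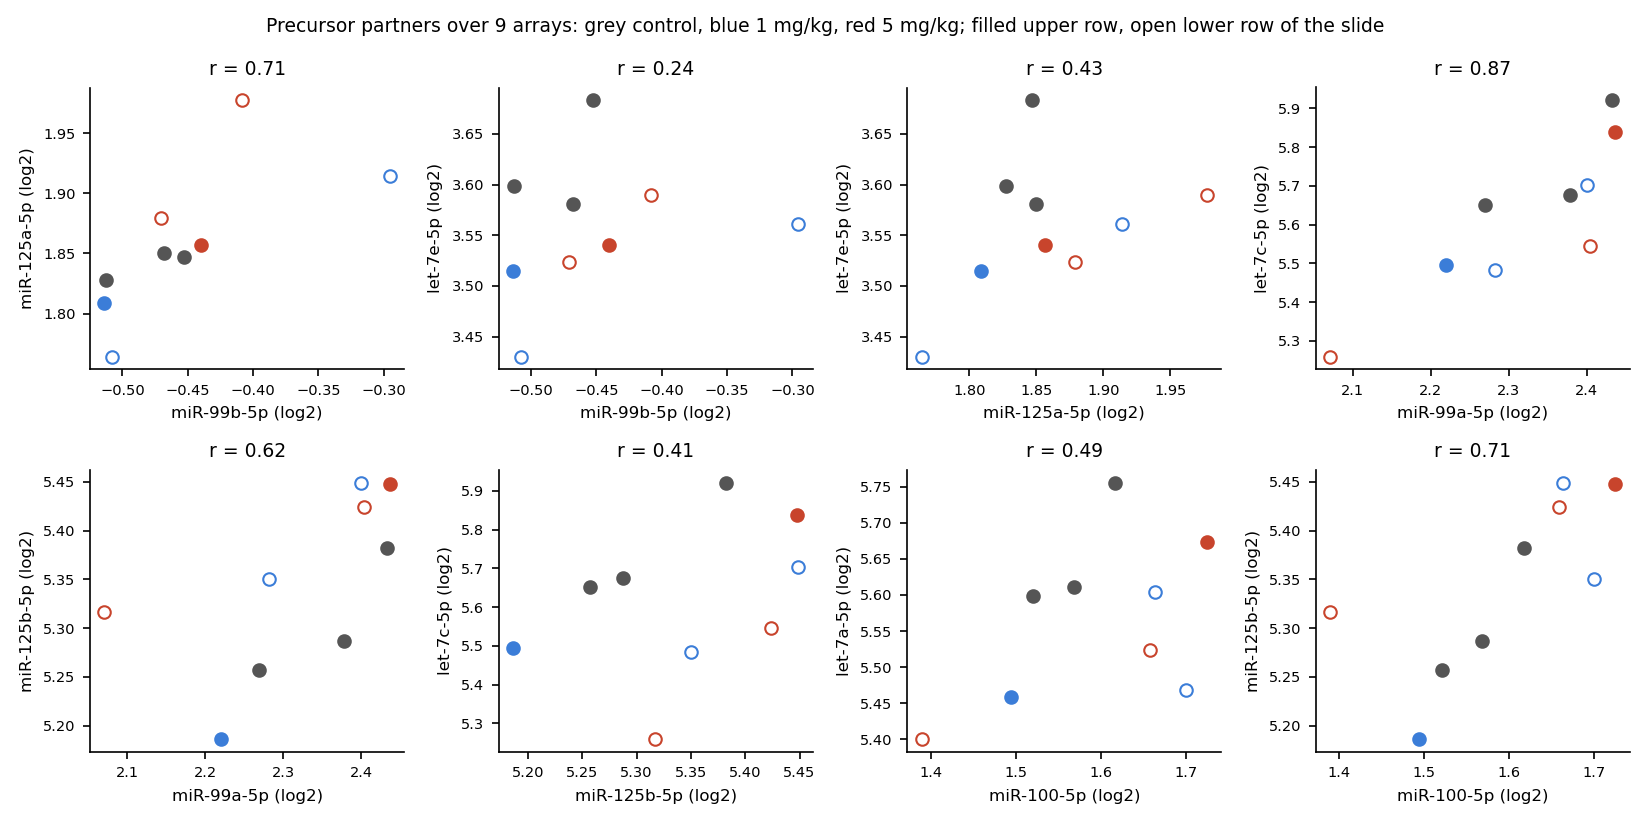
Log2 normalized signal on the 9 arrays of 8 pairs of strands with genes in the same precursor cluster. Grey is control, blue 1 mg/kg and red 5 mg/kg. Filled points are from the upper and open points from the lower row of a slide. miR-99a-5p with let-7c-5p is the tightest pair (r = 0.87) and miR-99b-5p with let-7e-5p the loosest (r = 0.24).

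Among the 5 strands themselves, the closest pair was not from the same cluster. miR-99a-5p and miR-100-5p, whose probes differ at 1 base, had r = 0.82 over the 9 arrays, above the value of either with miR-125b-5p. miR-99b-5p, of the same seed family, had r = 0.10 with miR-99a-5p and 0.088 with miR-100-5p. miR-125a-5p and miR-125b-5p had r = 0.30. These coefficients are given as a description, without a test.

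The miRNAs most like each strand were named by r over the 9 arrays among the 419 tested miRNAs outside the 5. They were miR-379-5p, miR-3475 and miR-342-5p for miR-125a-5p (r from 0.84 to 0.87). They were miR-9-3p, miR-101c and miR-1949 for miR-125b-5p (r from 0.85 to 0.91). For miR-99a-5p they were miR-28a-5p, miR-200a-3p and miR-200b-3p (r from 0.89 to 0.94), and for miR-100-5p miR-350-3p, miR-26b-5p and miR-28a-5p (r from 0.88 to 0.92), so miR-28a-5p was among the closest 3 of both. For miR-99b-5p they were both arms of miR-532 and miR-17-5p (r from 0.82 to 0.86). All of these were picked as the highest of 419 coefficients over 9 arrays, which favours high r, and no test was made. The median r of a strand with the other tested miRNAs lay between -0.11 and 0.064. Of the precursor partners, let-7c-5p ranked 6 of 423 for miR-99a-5p. In the other pairs, the second strand ranked from 9 (miR-125a-5p for miR-99b-5p) to 112 (let-7e-5p for miR-99b-5p).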

How the data were processed

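The arrays were of the Agilent mouse miRNA design, with 1 colour (Cy3) and 1 hippocampal RNA sample each. The authors scanned the arrays and used Agilent Feature Extraction 10.7, named in the submitters' processing notes, so the deposited spot values are background-subtracted intensity in scanner units, not normalized between arrays. The authors also deposited a log2 table whose columns share an upper quartile of 1.60. Its normalization is not given in the sources used here, and it served as an alternative.

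From the intensities, outlier spots were dropped, spots averaged per probe, probes summed per miRNA, and sums divided by the array's 75th percentile, taken over the miRNAs that every array detected. Values under the array's lowest detected signal were raised to it before log2. A miRNA was tested where any group had it detected on its 3 arrays (424 miRNAs), in a fit with limma 3.58.1 (R 4.3.3) over the 3 groups, with Benjamini-Hochberg adjustment, so ± gives its SE and the p values measure the spread between mice and arrays. On simulated data (20 sets of 424 miRNAs, in each 40 shifted by a log2 value of 1), 92.1% of the shifted miRNAs were recovered at an adjusted p under 0.05. Smaller shifts were not simulated. The share therefore gives no recovery rate for changes as small as those of the detected strands.

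No array was a copy of another, since any 2 shared at most 34 identical values over 49880 spots. The number of arrays limits the precision. The strands, the precursor and Hox-linked lists and the markers were chosen with earlier results of these data known. The text names the 7 strands, the tested members of the precursor list that were without overlap, let-7a-5p, let-7c-5p and let-7e-5p, miRNAs that share a seed, and the 3 most correlated miRNAs. Other values of background, scaling, filter, blocks and arrays left out were tried. Coordinates and sequences are from RefSeq, and probe sequences from the deposited array files.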

Additional observations from a re-analysis of the deposited data

How the results depend on the processing

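Across 360 refits of the 15 changes (5 strands, 3 comparisons, 24 settings), 317 kept their sign and their side of the threshold. Another 42 took the other sign, with a largest size of 0.13, and 1 passed the unadjusted threshold. 0 passed the adjusted one, with a lowest adjusted p of 0.155. That 1 was miR-125a-5p at 5 mg/kg on the total signal of the files (0.22), where all tested miRNAs had a median of 0.14, and the count of called strands there was 1 of 5, beside 102 of 424 tested miRNAs. Without the filter the count at 1 mg/kg was 1 of 7, also at the adjusted threshold, beside 780 of 1247 miRNAs (758 adjusted): it was miR-10b-5p, which sat at the array floor on all arrays, so the change was that of the floor. Signs turned as follows. At 1 mg/kg, miR-125a-5p gave 0.13 on total signal, 0.00025 with normexp, 0.023 with the percentile of all miRNAs, 0.047 with quantile normalization, 0.097 unscaled and 0.064 in the deposited log2 table. miR-99a-5p gave 0.080 on total signal and 0.050 unscaled, miR-99b-5p -0.0067 with quantile normalization and -0.0011 in the deposited table, and miR-125b-5p -0.026 with slide rows as a block. At 5 mg/kg, miR-99a-5p gave 0.10 on total signal and 0.058 unscaled, and miR-100-5p -0.045 with slides as a block. Between doses, miR-125a-5p gave -0.018 with quantile normalization and -0.022 in the deposited table, and miR-99a-5p -0.023 with the percentile of all miRNAs and -0.063 with slides as a block. miR-99b-5p gave 0.016 on total signal, 0.056 with quantile normalization, 0.0037 unscaled, 0.0056 with the mean over probes and 0.041 in the deposited table. Unscaled values moved the median of all tested miRNAs by up to 0.11. The cause of these turns was not tested.

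With each array left out in turn, changes at 1 mg/kg ran from -0.055 to 0.017 for miR-125a-5p, -0.040 to 0.091 for miR-125b-5p and -0.033 to 0.076 for miR-99b-5p. At 5 mg/kg they ran from -0.12 to 0.060 for miR-99a-5p and -0.047 to 0.12 for miR-100-5p. Between doses they ran from -0.0037 to 0.13 for miR-125b-5p, -0.066 to 0.12 for miR-99a-5p, -0.038 to 0.071 for miR-99b-5p and -0.098 to 0.076 for miR-100-5p.

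The number of precursor pairs past the adjusted threshold by Pearson's r, 1 of 8 (2 of 8 by Spearman's rho), was 7 on total signal, 8 unscaled, 3 with normexp, 2 with the percentile of all miRNAs, 2 when scaled on the detected median, 5 with slide rows as a block, and 0 with quantile normalization and in the deposited table. Leaving out arrays it ran from 0 (without 5 mg/kg replicate 3) to 2 (without 1 mg/kg replicate 3).

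Deviations from the group means correlated from -0.65 to 0.74 between same-numbered arrays and from -0.80 to 0.84 between other-numbered arrays. The numbers were therefore not treated as pairs, although 3 arrays per group cannot exclude a pairing. With the replicate number as a block, 0 strands were called, and the lowest unadjusted p in limma was 0.612 at 1 mg/kg, 0.365 at 5 mg/kg and 0.338 between doses. Signal over background limits miR-10a-5p and miR-10b-5p, and 3 arrays per group limit the rest.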

Other observations

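The 21-base miR-10 probes were set against the 2 detected strands of nearest sequence, a comparison chosen after the values were seen. On scaled log2 values over 9 arrays, the miR-10a-5p probe gave r = 0.69 with miR-99a-5p (rho = 0.72, exact permutation p = 0.0328, adjusted p = 0.0656) and r = 0.43 with miR-100-5p (exact permutation p = 0.244). The miR-10b-5p probe gave r = 0.77 with miR-100-5p (rho = 0.78, exact permutation p = 0.0161, adjusted p = 0.0643) and r = 0.62 with miR-99a-5p (exact permutation p = 0.0768). None of the 4 relations passed the threshold after adjustment over the 4. With row means taken out, the 4 coefficients were 0.69, 0.44, 0.77 and 0.68 in this order, and without the 2 arrays farthest from the median they were 0.95, 0.37, 0.72 and 0.33. The probe signals were not well above background.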
